A study of Mus with 12 samples.

Results

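The 78 genes described here carry symbols that begin with Mrpl or Mrps followed by a digit, the names given to the proteins of the mitochondrial ribosome. They were taken by that rule from the 27294 genes of the deposited expression table, and 5 further names that mark pseudogenes were left out. The set holds 49 Mrpl and 29 Mrps genes, named for the large and the small ribosomal subunit. RNA was measured in 12 poly(A) RNA-seq libraries of mouse primary peritoneal macrophages, phagocytes taken from the abdominal cavity, with n = 3 libraries in each of 4 groups. The groups were wild-type (WT) cells with no treatment label, called untreated here, WT cells labelled oxLDL (oxidised low-density lipoprotein, a modified cholesterol-carrying particle), knockout (KO) cells with no treatment label, and KO cells labelled oxLDL. The labels name no knocked-out gene, and WEE1, the mitotic inhibitor kinase, appears in the title of the series. They also give no strain, age, dose or time of exposure, do not say how the knockout was made or in which cells, and do not say whether replicates came from separate animals, so p-values measure the spread between these libraries. Titles of the oxLDL libraries read LDL. The data hold no check on which of these particles was used.

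Mitochondria keep their own protein synthesis machinery. Their ribosome is assembled in the matrix from rRNA transcribed from mitochondrial DNA and from proteins encoded in the nucleus, made in the cytosol and imported. It translates the few mRNAs of the mitochondrial genome, which encode membrane subunits of the respiratory chain and of ATP synthase. The small subunit binds and decodes the mRNA, and the large subunit forms the peptide bond and releases the new chain at the inner membrane. In macrophages, inflammatory activation is known to be accompanied by a change in the use of the respiratory chain.

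Library totals ran from 53588814 to 76809931 counted fragments, and the replicate 2 libraries of both WT groups were the shallowest. All 78 genes passed the filter on low counts that left 17291 genes. Each gene held between 17 and 4234 counts in every library, and 10 genes had fewer than 100 in at least 1 library. Wee1 stood at 3.095, 3.25 and 2.797 FPKM (fragments per kilobase of transcript, scaled to library size) in untreated WT libraries and 1.63, 1.603 and 1.22 in untreated KO libraries, a log2 fold change of -0.93 (SE 0.14, adjusted p = 0.000139) by the quasi-likelihood test of edgeR, with p-values adjusted by Benjamini-Hochberg over all genes tested. Wee1 transcripts were thus lower but present in the KO libraries, and the labels do not give the deleted part of the gene. The 8 macrophage markers summed to 21070 to 21470 FPKM in untreated WT, 14940 to 15920 once WT cells had oxLDL, and from 10660 to 11810 over both KO groups, sums that are mostly Lyz2. Of the 8, 6 were called higher and 2 lower with oxLDL in WT (23.9% and 27.2% of all genes tested). In KO against WT, 1 was called higher and 7 lower both untreated (14.8% and 16.2% of all genes) and with oxLDL (30.6% and 27.4%). These calls rest on the scaling described below and need not match the FPKM values. Cd14 and Fcgr1 stood at a mean of 82.7 and 40.9 FPKM in untreated WT and at 337 and 131 with oxLDL. Mean FPKM of Adgre1 went from 545 to 762, and that of Mertk from 57.0 to 58.7. Means fell for Lyz2 (18500 to 12450), Cd68 (1629 to 1376), Csf1r (273 to 137) and Itgam (202 to 172). Of the 5 T cell markers, which summed to at most 1.19 FPKM in any library, Cd3e and Trac were at 0 in both KO groups. Summed mast cell markers were at 3.63 to 4.44 FPKM in untreated WT and at most 1.37 in KO with oxLDL. Summed neutrophil markers were at 3.05 to 3.99 FPKM in untreated WT, 4.93 to 5.49 under oxLDL in WT, and at most 1.68 in either KO group. Of 8 proliferation markers, 1 was called higher and 5 lower with oxLDL in WT (23.9% and 27.2% of all genes). In untreated KO against WT, 1 was called higher and 7 lower (14.8% and 16.2% of all genes). Mki67 had a mean of 14.1 FPKM in untreated WT, 23.6 with oxLDL in WT and 2.81 in untreated KO, while Pcna, which dominates the sum of this list, had 53.6, 40.5 and 60.5. The protocol text in the labels speaks of adipose RNA, whereas the adipocyte marker Adipoq was at 0 in 3 of the 4 groups and summed adipocyte markers stayed at or under 0.101 FPKM. The part of these differences in cell markers in the results below was not tested, and in bulk RNA fewer cells of a type and less RNA per cell cannot be told apart.

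As a group, the mitochondrial ribosomal protein genes took the largest share of the transcriptome in untreated WT macrophages and the smallest in WT macrophages with oxLDL. Their summed FPKM was 0.159, 0.173 and 0.169% of the FPKM of all genes in the 3 untreated WT libraries, and 0.126, 0.117 and 0.123% in the 3 WT libraries with oxLDL. In untreated KO libraries the share was 0.138, 0.145 and 0.138%, and in KO libraries with oxLDL it was 0.154, 0.150 and 0.144%. The 2 WT groups lay on either side of the 2 KO groups with no overlap, whereas the KO groups touched, with the lowest KO library with oxLDL at 0.144% and the highest untreated one at 0.145%. The means were 0.167 ± 0.00702, 0.122 ± 0.00448, 0.140 ± 0.00407 and 0.149 ± 0.00486% (SD, n = 3) in untreated WT, WT with oxLDL, untreated KO and KO with oxLDL. Counted fragments gave the same order of the groups, with 0.117 ± 0.00400% untreated and 0.0835 ± 0.00190% with oxLDL in WT. Summed Mrpl over summed Mrps FPKM was 2.18 ± 0.106 in untreated WT, 2.46 ± 0.111 in WT with oxLDL, 2.09 ± 0.0204 in untreated KO and 2.17 ± 0.0887 in KO with oxLDL. On this scale the WT libraries with oxLDL thus held relatively less RNA of genes named Mrps. The margin was narrow, with the lowest WT oxLDL library at 2.35 and the highest untreated WT library at 2.30. The Mrps names include Mrps18a, Mrps30 and Mrps36, which are not placed in the small subunit. The share rests on library totals, and on that scale most genes were lower with oxLDL in WT, with a median log2 change of -0.46. A lower share is therefore not particular to this set. These sums are a description with no test, because the genes were chosen with results of these data known.

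**Figure D1:**
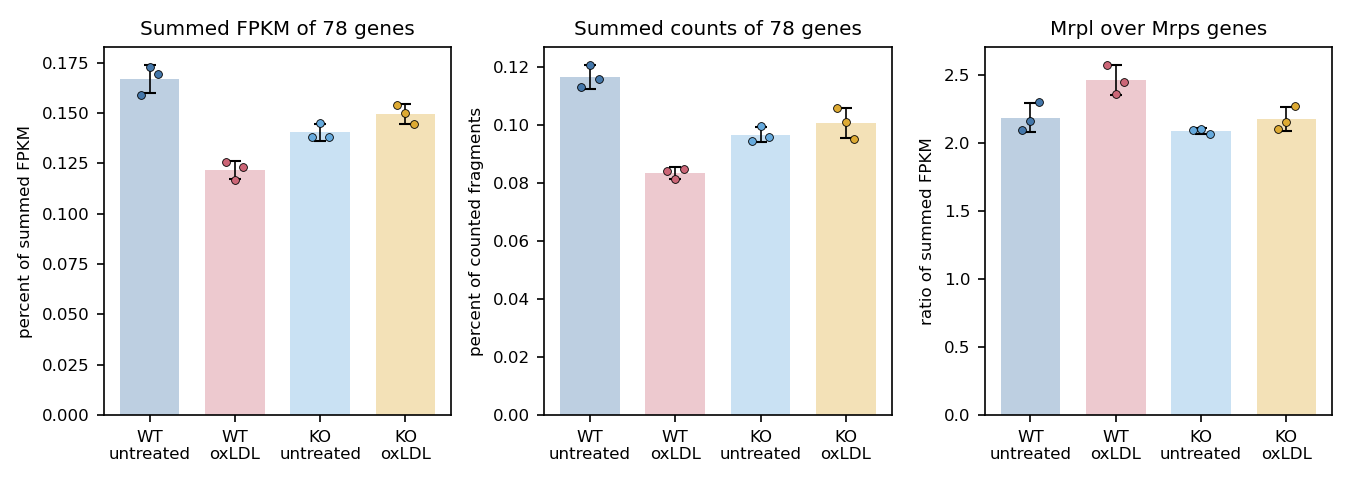
Summed level of the 78 mitochondrial ribosomal protein genes by group, as a percent of the summed FPKM of all genes (left), as a percent of counted fragments (middle), and as the ratio of summed Mrpl to summed Mrps FPKM (right). Points are the 3 libraries of a group in replicate order, bars their mean and error bars 1 SD. WT libraries with oxLDL lie at 0.117 to 0.126% on the left, under all other libraries.

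The choice of scale bears on the balance of rises and falls. FPKM rest on library totals, while the tests used TMM scaling, which sets most genes to no net change. TMM factors were 1.10 to 1.13 in untreated WT, 0.832 to 0.843 for WT libraries with oxLDL, and 1.03 to 1.04 in the KO groups. With library totals alone, the median log2 change of all genes tested with oxLDL in WT moved from -0.06 to -0.46, and the median of the 78 genes from -0.24 to -0.64. The other medians over all genes moved from -0.01 to -0.12 for KO against WT untreated, from 0.05 to 0.36 for KO against WT with oxLDL and from 0.08 to 0.49 for the interaction. Log2 fold changes are therefore changes relative to the other genes of the same libraries, and a log2 change on the TMM scale need not match the ratio of FPKM values beside it. Counts with library totals alone stand beside the TMM counts of the whole set and of most related lists. They are not given for the cell marker lists.

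With oxLDL, genes of the set both fell and rose in WT macrophages, and how far falls outnumbered rises depended on the fit. Of the 78 genes, 30 fell (38.5%, against 27.2% of all genes tested) and 13 rose (16.7%, against 23.9% of all genes). The median log2 fold change was -0.24, beside -0.06 over all genes tested. It was -0.11 without WT oxLDL library 2 (-0.055 over all genes) and -0.13 with the length offset (0.019 over all genes). Relative log expression scaling and DESeq2 each gave 26 lower and 14 higher, and the length offset 22 and 18. Over all 17291 genes these fits gave 4413 lower and 4421 higher, 4546 and 4512, and 4154 and 4696. The balance of all genes thus moved as well. Scaled by library totals alone, 52 fell (48.1% of all genes) and 2 rose (12.9% of all genes). The split differed along the subunits as they are placed in the ribosome, a grouping that counts Mrps18a and Mrps30 as large-subunit proteins and leaves out Mrps36, now assigned to a dehydrogenase complex. Of 26 small-subunit genes 14 fell and 2 rose, with a median of -0.32, and of 51 large-subunit genes 15 fell and 11 rose, with a median of -0.06. The difference between the subunits itself was not tested. Of the 30 that fell, 22 were called lower in all 10 other fits (other scaling, filter, test, set of libraries, replicate block or length offset), and 18 of those also with any 1 library left out. Of the 13 that rose, Mrpl39 and Mrpl53 were called higher in all of these.

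**Figure D2:**
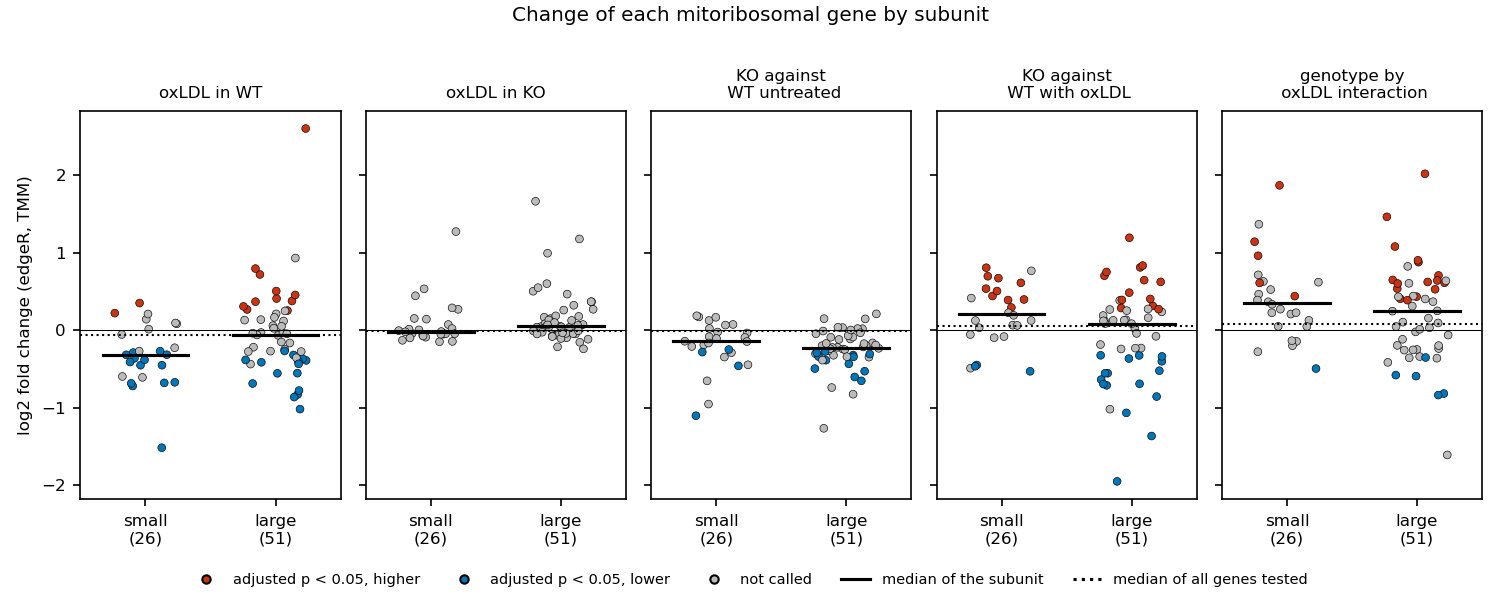
Log2 fold change (edgeR, TMM scale) of each gene in the 5 comparisons, split into 26 small-subunit and 51 large-subunit genes. Red and blue points passed adjusted p under 0.05, grey points did not, solid bars mark the subunit medians and the dotted line the median of all genes tested. With oxLDL in WT the small-subunit median lies at -0.32 and the large-subunit median at -0.06, and no gene is called in the KO panel.

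Among the large-subunit genes that rose in WT cells, Mrpl39 was called in every fit. Mrpl39 (chromosome 16, bases 84717576 to 84735742, minus strand) encodes a protein found in mitochondrial but not bacterial ribosomes. Its FPKM were 7.83, 10.8 and 9.62 in untreated WT libraries, 12.3, 12.2 and 12.3 in those with oxLDL, 5.702, 6.72 and 5.71 in untreated KO and 5.24, 6.24 and 6.16 in KO with oxLDL. All 3 WT libraries with oxLDL stood above every other library, and every KO library stood below every WT library. With oxLDL in WT the log2 fold change was 0.80 (SE 0.11, adjusted p = 1.78e-05). KO against WT gave -0.53 (SE 0.11, adjusted p = 0.00141) untreated and -1.37 (SE 0.11, adjusted p = 4.5e-08) with oxLDL.

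Mrpl27, the counterpart of a bacterial protein beside the peptidyl transferase centre, was at 13.3, 15.5 and 17.8 FPKM in WT cells untreated and 18.8, 18.04 and 20.8 with oxLDL, and at 10.5, 13.2 and 12.5 in untreated KO and 13.3, 10.7 and 9.94 with oxLDL. The WT libraries with oxLDL were the highest of all 12. The log2 fold change with oxLDL in WT was 0.72 (SE 0.13, adjusted p = 0.000325), and with library totals alone it was 0.31 (adjusted p = 0.0559). Mrpl27 shares bases with Eme1, and the strand setting of the counting is not given, so reads from the shared bases cannot be assigned to 1 gene. Mrpl30 and Mrpl38, also large-subunit genes, had log2 fold changes of 0.51 (SE 0.14, adjusted p = 0.00725) and 0.46 (SE 0.13, adjusted p = 0.0106) with oxLDL in WT, and both calls ended with library totals alone, that of Mrpl38 also without WT oxLDL library 3. Mrpl30 FPKM were 6.08, 7.28 and 6.26 untreated and 6.304, 7.404 and 7.25 with oxLDL in WT, and those of Mrpl38 were 5.05, 5.201 and 5.37 and 5.43, 4.41 and 6.25. The WT groups overlapped on the FPKM scale for both genes.

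Mrpl53 had the largest fitted rise and the largest spread. Its FPKM were 0.259, 0.432 and 1.97 in untreated WT libraries, 5.71, 0.951 and 5.76 in those with oxLDL, 0.677, 0.848 and 0.421 in untreated KO and 1.45, 1.802 and 0.706 in KO with oxLDL. WT library 2 with oxLDL stood below untreated WT library 3, so the groups overlapped. The log2 fold change in WT was 2.60 (SE 0.71, adjusted p = 0.00666), between 2.17 and 3.94 when any 1 library was left out. Mrpl53 lies over Ccdc142os and Gm42688, and reads from the bases it shares with them cannot be told apart. Counts of Mrpl53 in untreated WT were 18, 20 and 124.

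**Figure D3:**
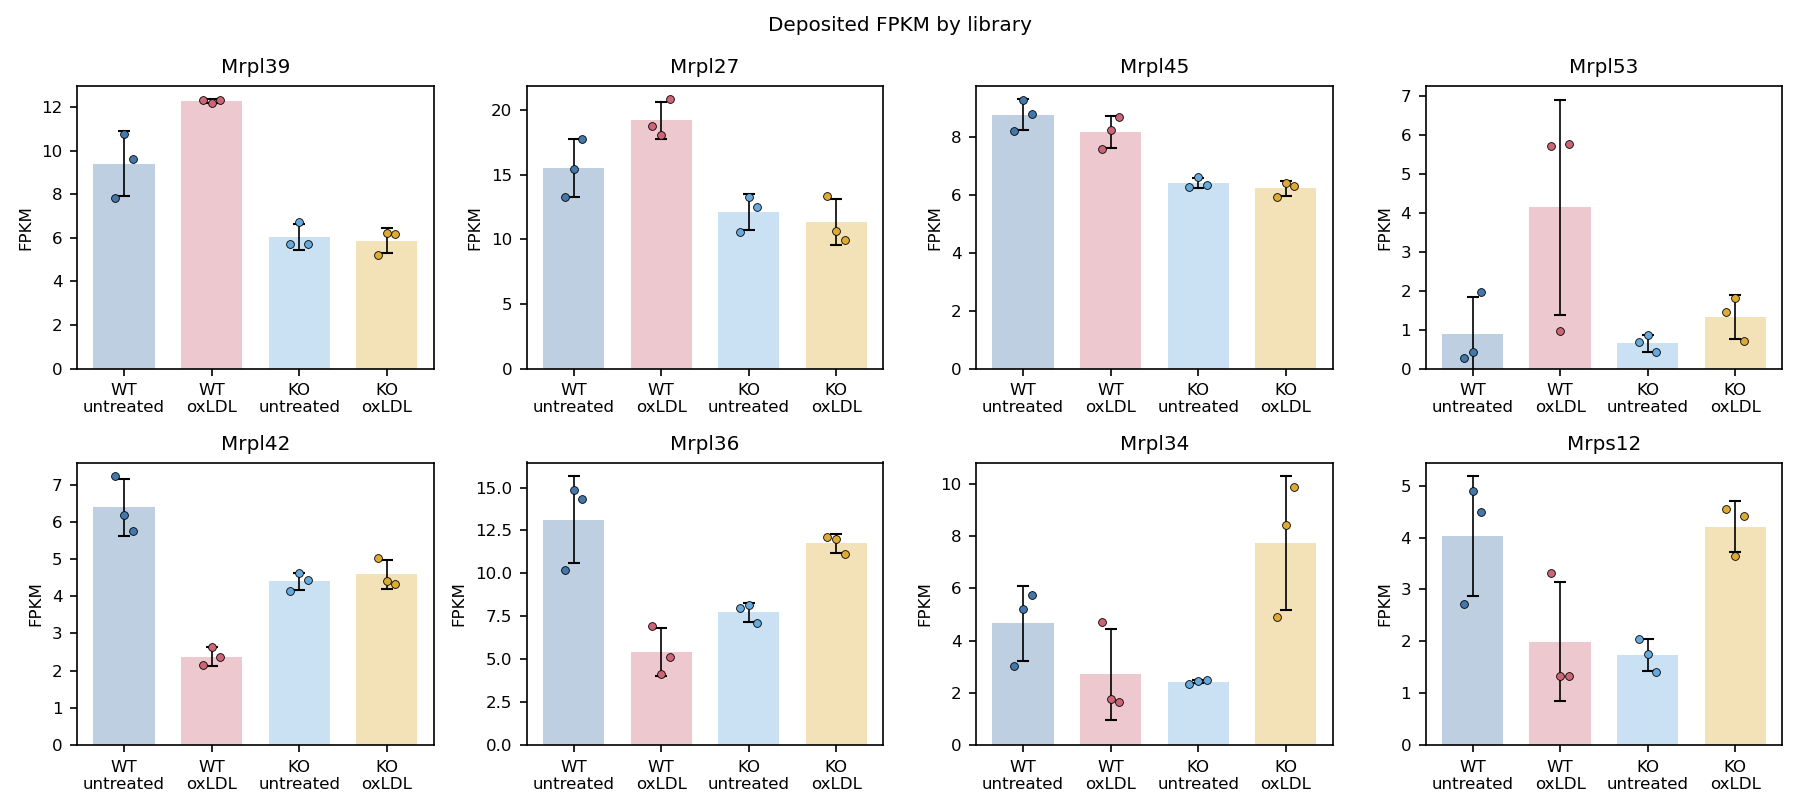
Deposited FPKM of 8 genes in the 12 libraries. Points are single libraries in replicate order, bars group means and error bars 1 SD, cut at 0 for Mrpl53. The 3 WT libraries with oxLDL stand highest for Mrpl39 and lowest for Mrpl42, and library 1 of WT with oxLDL stands above libraries 2 and 3 for Mrpl34 and Mrps12.

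Of the genes that fell in WT cells with oxLDL, Mrpl42 moved furthest with little spread. Mrpl42 (chromosome 10, bases 95480805 to 95501927, minus strand) encodes a large-subunit protein without a bacterial counterpart. Its FPKM were 7.23, 6.19 and 5.75 in untreated WT and 2.14, 2.64 and 2.35 with oxLDL, and 4.14, 4.62 and 4.43 in untreated KO and 5.04, 4.42 and 4.32 with oxLDL. Every WT library with oxLDL was under every other library, and all KO libraries lay between the 2 WT groups. In WT the log2 fold change was -1.02 (SE 0.11, adjusted p = 2.33e-06).

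Mrpl36, a small large-subunit protein with a bacterial counterpart, whose gene overlaps no other (chromosome 13, bases 73328513 to 73332178, plus strand), was at 10.2, 14.9 and 14.3 FPKM in untreated WT and 6.92, 4.14 and 5.14 with oxLDL, a log2 fold change of -0.86 (SE 0.17, adjusted p = 0.000546). Its KO libraries held 7.99, 8.13 and 7.09 FPKM untreated and 12.1, 12.02 and 11.1 with oxLDL. The order thus turned with genotype: with oxLDL the WT libraries were the lower group, and the KO libraries the higher. Mrpl28, the counterpart of a bacterial large-subunit protein, was at 9.05, 9.45 and 8.12 FPKM in untreated WT and 3.44, 4.07 and 3.79 with oxLDL, a log2 fold change of -0.83 (SE 0.11, adjusted p = 2.19e-05). Its KO libraries, at 6.88, 7.26 and 7.396 untreated and 7.02, 8.76 and 6.899 with oxLDL, lay wholly between the 2 WT groups when untreated. Mrps36, which despite its name is now placed in the 2-oxoglutarate dehydrogenase complex of the citric acid cycle, was at 8.19, 8.67 and 6.81 FPKM in untreated WT and 3.31, 3.16 and 3.55 with oxLDL, a log2 fold change of -0.83 (SE 0.14, adjusted p = 0.000137). WT libraries with oxLDL were the lowest for both genes.

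Mrps34, a small-subunit protein specific to mitochondria, had FPKM of 1.22, 1.36 and 1.93 in untreated WT and 0.417, 0.133 and 0.595 with oxLDL. The groups did not overlap, but the gene is thinly covered, with 69, 17 and 98 counts in the oxLDL libraries, and it shares bases with Mapk8ip3 and Nme3. The log2 fold change was -1.52 (SE 0.49, adjusted p = 0.0181), and the call was lost when untreated WT library 3 or WT oxLDL library 2 was left out (log2 fold changes between -1.97 and -1.14 over all such fits).

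In KO macrophages oxLDL left no gene of the set past the threshold. By edgeR's test, 0 of 78 rose (0.0116% of all genes tested, which is 2 genes) and 0 fell (0.0% of all genes), the same counts as with library totals alone. At an unadjusted p under 0.05, 10 were higher and 1 lower, beside 1211 of all 17291 genes in either direction. The median log2 change was 0.04, beside 0.00 over all genes. DESeq2 called 2 genes of the set higher (99 of all 17291 genes), and a fit of the KO libraries alone called 3 (60 of 15871). The fit without WT oxLDL library 1 called 2 (56 of 17928). The members called were Mrpl34 and Mrps12 in each case, with Mrpl36 as the third in the fit of the KO libraries alone. An adjusted p above the threshold does not show that the other genes stayed level.

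Mrpl34, the counterpart of a small bacterial large-subunit protein (chromosome 8, bases 71464959 to 71465747, plus strand), was at 2.35, 2.44 and 2.48 FPKM in untreated KO and 4.89, 8.43 and 9.89 in KO with oxLDL. In WT it was at 3.03, 5.21 and 5.74 untreated and 4.72, 1.76 and 1.65 with oxLDL. All KO libraries with oxLDL lay above all untreated ones, whereas the WT groups overlapped because library 1 of each stood apart from its replicates. The log2 fold change with oxLDL was 1.67 (SE 0.38, adjusted p = 0.26) in KO and -0.35 (SE 0.38, adjusted p = 0.472) in WT. Mrps12, the counterpart of the bacterial protein that monitors decoding, was at 2.04, 1.75 and 1.41 FPKM in untreated KO and 4.55, 3.64 and 4.42 with oxLDL, and at 2.72, 4.89 and 4.49 in untreated WT and 3.31, 1.33 and 1.33 with oxLDL. Its KO groups again did not overlap and its WT groups did. The log2 fold change with oxLDL was 1.27 (SE 0.32, adjusted p = 0.308) in KO and -0.60 (SE 0.32, adjusted p = 0.143) in WT. The WT value was -1.18 (adjusted p = 0.0019) without WT oxLDL library 1 and -1.01 (adjusted p = 0.0153) with library totals alone. On the lower side, the smallest p-values in KO cells belonged to Mrpl32, at -0.21 (adjusted p = 0.71), and Mrps30, at -0.24 (adjusted p = 0.766).

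Without treatment, genes of the mitochondrial ribosome that differed between the genotypes were lower in KO cells. Of the 78 genes, 16 were lower (20.5%, against 16.2% of all genes tested) and 0 were higher by edgeR's test (against 14.8% of all genes). At an unadjusted p under 0.05, 0 were higher and 23 lower, beside 6678 of all 17291 genes in either direction. The median log2 fold change was -0.20, beside -0.01 over all genes. On library totals alone, 30 were lower (22.3% of all genes) and 0 higher (10.2% of all genes). Of the 16, 12 belong to the 51 large-subunit genes and 4 to the 26 small-subunit genes. Of the 16, 13 were called lower in all 10 other fits, and 7 of those with any 1 library left out as well: Mrpl18, Mrpl2, Mrpl36, Mrpl39, Mrpl42, Mrpl45 and Mrpl47. Leaving out untreated WT library 2 or 3 brought the count to 10, and leaving out untreated KO library 3 gave 1 gene called higher.

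Among the called genes, Mrps12 was lower by the widest margin, with a log2 fold change of -1.10 (SE 0.32, adjusted p = 0.0176). Its untreated KO libraries, at 2.04, 1.75 and 1.41 FPKM, all stood under the untreated WT libraries, at 2.72, 4.89 and 4.49, but the call was lost without untreated WT library 2 or 3 or untreated KO library 3. Mrpl36 followed at -0.65 (SE 0.17, adjusted p = 0.00709), with KO libraries at most 8.13 FPKM and WT libraries at least 10.2. Mrpl2, the counterpart of a conserved protein near the peptidyl transferase centre, was at 8.504, 10.3 and 10.3 FPKM in untreated WT and 4.53, 7.51 and 5.71 in untreated KO, a log2 fold change of -0.60 (SE 0.16, adjusted p = 0.00821), and the groups did not overlap. Mrpl13, the counterpart of a bacterial large-subunit protein, was at 2.69, 2.499 and 1.99 FPKM in untreated WT and 1.52, 1.78 and 1.43 in untreated KO, a log2 fold change of -0.50 (SE 0.13, adjusted p = 0.00847), a call that ended without untreated WT library 1. Mrpl13 shares bases with Mtbp, and reads from the shared bases cannot be told apart. Among the positive values, the smallest p-values belonged to Mrpl41 at 0.21 (adjusted p = 0.172) and Mrps15 at 0.17 (adjusted p = 0.214), neither of which passed the threshold.

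With oxLDL, KO and WT macrophages differed in both directions. Of the 78 genes, 24 were higher in KO (30.8%, against 30.6% of all genes tested) and 19 lower (24.4%, against 27.4% of all genes), so both shares were close to those of all genes. The median log2 fold change was 0.13, beside 0.05 over all genes. The balance turned with the fit: 19 were higher and 21 lower with relative log expression scaling, 20 and 22 with DESeq2, and 17 and 24 with the length offset, where the median was 0.01. Over all 17291 genes these fits gave 4986 higher and 4961 lower, 5079 and 5043, and 4761 and 5257. The balance of all genes thus moved the same way. Under library totals alone, 46 were higher (43.6% of all genes) and 11 lower (19.1% of all genes). Small-subunit genes were called higher 10 times and lower 3 times, and large-subunit genes higher 13 times and lower 16 times. In all 10 other fits 17 remained called higher and 9 lower, and with any 1 library left out as well 14 and 9 did.

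The comparison shares its WT oxLDL libraries with the one of oxLDL in WT. At the upper end, Mrpl41, a large-subunit protein specific to mitochondria, was at 16.3, 19.7 and 16.97 FPKM in untreated WT libraries, 7.71, 7.03 and 8.42 in those with oxLDL, 20.6, 20.01 and 16.3 in untreated KO and 17.1, 17.97 and 16.04 in KO with oxLDL. Only the WT oxLDL group stood apart, with every other library at least at 16.0 FPKM. KO against WT with oxLDL gave 0.83 (SE 0.11, adjusted p = 1.32e-05), and oxLDL in WT -0.78 (SE 0.11, adjusted p = 3.46e-05). Mrps25, a small-subunit protein specific to mitochondria, had the same form, at 1.41, 1.73 and 1.62 FPKM in WT with oxLDL and 4.62, 2.900 and 2.74 in KO with oxLDL, a log2 fold change of 0.81 (SE 0.19, adjusted p = 0.00174), but it shares bases with Nr2c2. Mrpl36 and Mrps36 were higher, at 0.81 (SE 0.17, adjusted p = 0.000749) and 0.80 (SE 0.14, adjusted p = 0.000156). Mrpl34 was at 1.19 (SE 0.38, adjusted p = 0.0139), a call lost when WT oxLDL library 2 or 3 or KO oxLDL library 3 was left out.

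At the lower end, beside Mrpl39, stood Mrpl27 at -1.07 (SE 0.13, adjusted p = 6.51e-06), Mrpl13 at -0.86 (SE 0.13, adjusted p = 4.55e-05) and Mrpl32 at -0.71 (SE 0.10, adjusted p = 2.04e-05). Mrpl32 is the counterpart of a bacterial large-subunit protein and is known to be cut to its mature form by the m-AAA protease before it is built into the ribosome. It was at 2.72, 2.79 and 2.86 FPKM in untreated WT libraries, 2.65, 2.84 and 2.72 in those with oxLDL, 2.21, 2.44 and 2.52 in untreated KO and 2.36, 1.96 and 1.86 in KO with oxLDL. The 2 WT groups overlapped on the FPKM scale, and all KO libraries lay below all WT libraries. Mrpl53 gave -1.95 (SE 0.69, adjusted p = 0.025), a call lost in 4 of the 12 fits that leave out 1 library, those without WT oxLDL library 1 or 3 or KO oxLDL library 1 or 3.

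**Figure D4:**
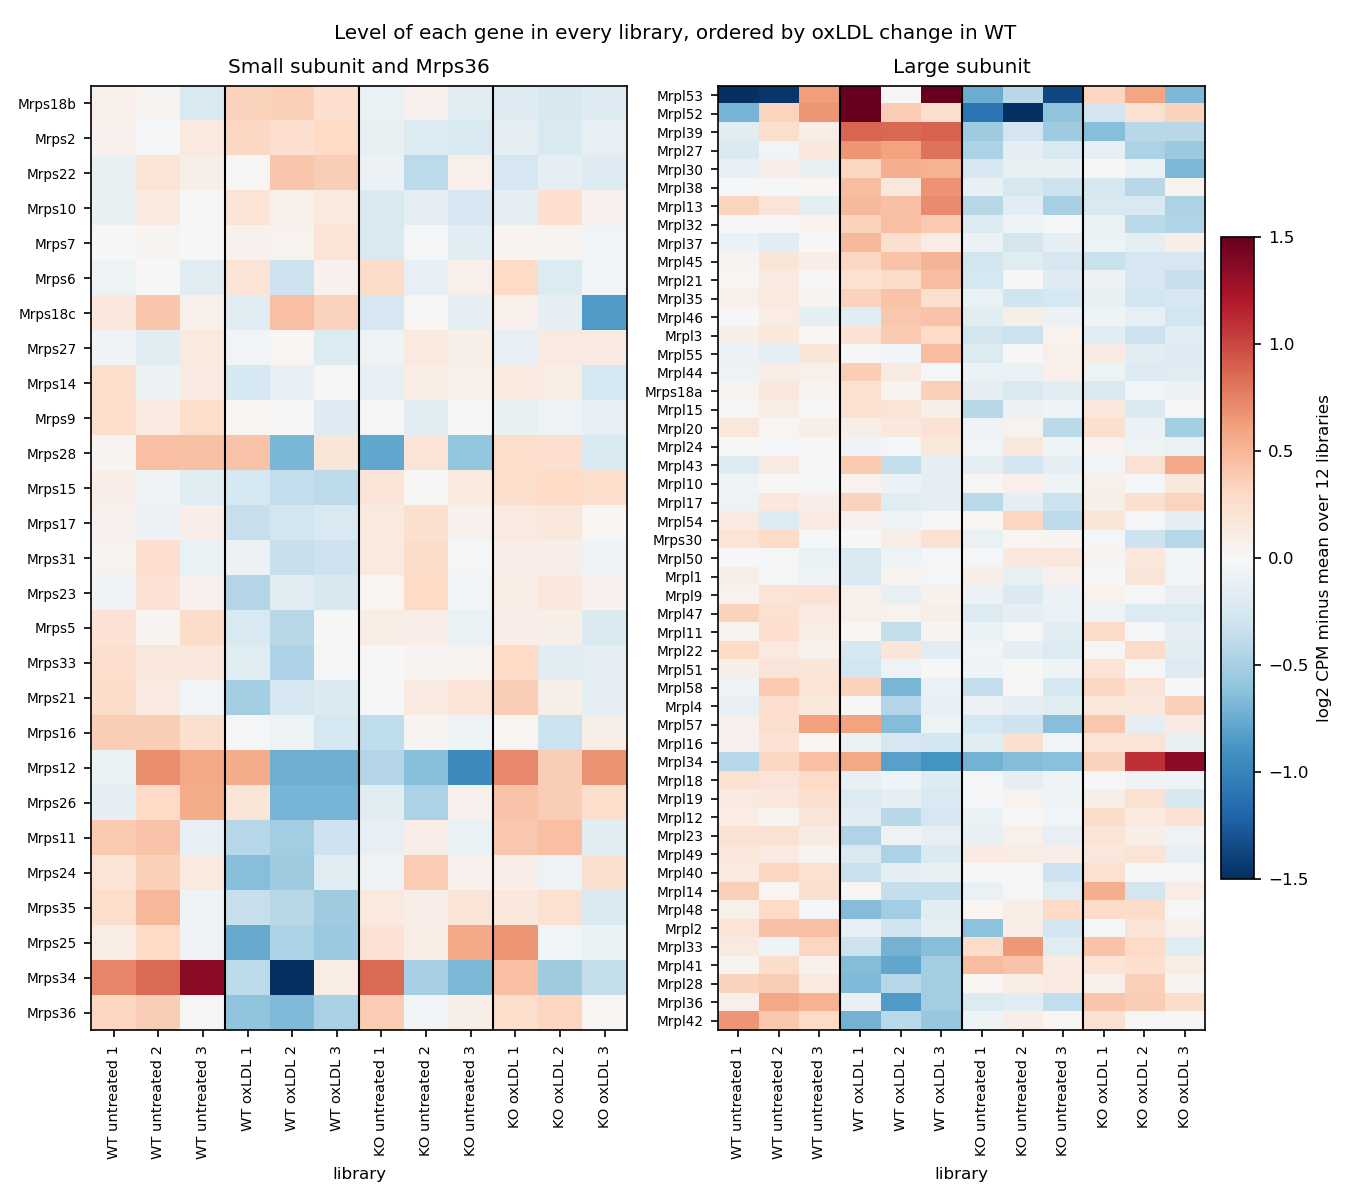
Log2 CPM (TMM scale) of every gene in every library, minus the gene's mean over the 12 libraries. The colour scale ends at ±1.5, the left panel includes Mrps36, and genes are ordered within each panel by the log2 fold change with oxLDL in WT, from the highest at the top. The genes at the bottom of both panels are blue in the WT libraries with oxLDL, and Mrps12, Mrps26 and Mrpl34 differ between library 1 and libraries 2 and 3 of that group.

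The response to oxLDL differed between the genotypes for 28 genes. The interaction (the log2 change in KO minus that in WT) was positive for 22 (28.2%, against 22.1% of all genes tested) and negative for 6 (7.69%, against 19.6% of all genes). Its median was 0.29, beside 0.08 over all genes. With library totals alone, 54 were positive (41.5% of all genes) and 1 negative (10.6% of all genes). The length offset gave 16 positive and 12 negative, beside 3274 and 3917 over all 17291 genes. Of the 22, 16 were called in all 9 other fits, and 14 of those with any 1 library left out as well. Of the 6 negative ones, Mrpl39 alone was called in all of these, and Mrpl27, Mrpl30, Mrpl32, Mrpl45 and Mrps18b lost the call with library totals alone.

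Mrpl34 and Mrps12 had the largest positive interactions, at 2.02 (SE 0.53, adjusted p = 0.00699) and 1.87 (SE 0.46, adjusted p = 0.00411), and both calls held with any 1 library left out. Mrpl36 followed at 1.46 (SE 0.24, adjusted p = 0.000147), Mrps26 at 1.14 (SE 0.35, adjusted p = 0.0177) and Mrpl42 at 1.08 (SE 0.16, adjusted p = 5.52e-05). Mrps26, a small-subunit protein specific to mitochondria, was among the 3 genes with the lowest mean FPKM, at 0.733, 1.01 and 1.22 in untreated WT libraries, 0.7003, 0.382 and 0.375 in those with oxLDL, 0.684, 0.5402 and 0.796 in untreated KO and 1.02, 0.998 and 0.912 in KO with oxLDL. Library 1 of WT with oxLDL stood at the level of the untreated KO libraries, above its 2 replicates, and Mrps26 lost the call without untreated WT library 3. Among the negative interactions, Mrpl39 was at -0.84 (SE 0.15, adjusted p = 0.000407), Mrpl27 at -0.82 (SE 0.19, adjusted p = 0.00256), Mrpl32 at -0.59 (SE 0.14, adjusted p = 0.00317), Mrpl30 at -0.58 (SE 0.20, adjusted p = 0.0293) and Mrps18b at -0.49 (SE 0.13, adjusted p = 0.0063). The call of Mrpl30 was lost in 6 of the 12 fits that left out 1 library.

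The Mrps18 paralogs, 3 copies of one bacterial protein of which Mrps18a sits in the large subunit and Mrps18b and Mrps18c in the small subunit, did not share one pattern. Mrps18b was at 9.55, 9.58 and 7.93 FPKM in untreated WT libraries, 8.87, 8.896 and 8.27 in those with oxLDL, 7.99, 8.93 and 7.62 in untreated KO and 7.42, 7.33 and 7.48 in KO with oxLDL. The 3 KO libraries with oxLDL were the lowest. It rose with oxLDL in WT, at 0.35 (SE 0.09, adjusted p = 0.00484) on the TMM scale, whereas with library totals alone the value was -0.06 (adjusted p = 0.616), and it was lower in KO with oxLDL, at -0.53 (SE 0.09, adjusted p = 0.000157). Mrps18a was at 5.81, 6.45 and 5.93 FPKM in untreated WT libraries, 5.03, 4.45 and 5.49 in those with oxLDL, 4.78, 4.48 and 4.69 in untreated KO and 4.49, 5.21 and 4.94 in KO with oxLDL. All untreated WT libraries were above all others. Mrps18a was lower in KO, at -0.28 (SE 0.09, adjusted p = 0.0246) untreated and -0.34 (SE 0.09, adjusted p = 0.00372) with oxLDL. The first call was lost with upper quartile scaling, with no filter on low counts, and without untreated WT library 2 or untreated KO library 2 or 3. The second was lost with library totals alone and in both limma fits. Its value with oxLDL in WT changed sign with the scaling, from 0.13 (adjusted p = 0.231) to -0.28 (adjusted p = 0.0117) with library totals alone. Mrps18c, at 10.4, 12.8 and 10.1 FPKM in untreated WT and 9.19, 8.12 and 4.83 in KO with oxLDL, passed the threshold in none of the 5 comparisons, with -0.49 (adjusted p = 0.0582) in KO against WT with oxLDL. There it was called lower by DESeq2 (-0.54, adjusted p = 0.0205), with relative log expression scaling, with the length offset and without library 1 of either oxLDL group (-0.67 and -0.68), and the fit of the untreated groups alone called it lower in untreated KO (-0.35, adjusted p = 0.0391).

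Other members with known roles were described whatever their values. Mrpl12, which sits in the stalk of the large subunit and is also known to bind the mitochondrial RNA polymerase, was at 9.14, 8.89 and 9.85 FPKM in untreated WT libraries, 5.76, 4.85 and 5.41 in those with oxLDL, 7.46, 7.92 and 7.74 in untreated KO and 9.53, 8.89 and 9.27 in KO with oxLDL. The WT oxLDL libraries were the lowest, with log2 fold changes of -0.39 (SE 0.09, adjusted p = 0.00184) with oxLDL in WT and 0.65 (SE 0.12, adjusted p = 0.000643) for the interaction. Mrpl45, which sits by the exit of the peptide tunnel and anchors the ribosome to the inner membrane, was at 8.198, 9.26 and 8.79 FPKM in untreated WT and 7.58, 8.23 and 8.66 with oxLDL, and at 6.26, 6.61 and 6.34 in untreated KO and 5.92, 6.403 and 6.31 with oxLDL. All KO libraries were below all WT libraries. Mrpl45 was lower in KO, at -0.34 (SE 0.07, adjusted p = 0.00228) untreated and -0.69 (SE 0.07, adjusted p = 1.29e-06) with oxLDL. With oxLDL in WT it rose, at 0.31 (SE 0.07, adjusted p = 0.00278) on the TMM scale, and its value with library totals alone was -0.10 (adjusted p = 0.26). Mrpl58, a peptidyl-tRNA hydrolase that rescues stalled ribosomes, passed the threshold in no comparison on the TMM scale, with WT FPKM of 1.92, 2.69 and 2.35 untreated and 1.95, 0.936 and 1.42 with oxLDL. With oxLDL in WT its log2 change was -0.68 (adjusted p = 0.013) with library totals alone and -0.55 (adjusted p = 0.0372) without WT oxLDL library 1. Mrpl58 also passed under both settings in KO against WT with oxLDL (0.56 and 0.52) and for the interaction (1.05 and 0.91).

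Levels ranged from a mean of 0.728 to 20.3 FPKM over the 12 libraries, with a median of 4.37. The 3 highest were Mrpl24, Mrpl18 and Mrpl41, and the 3 lowest Mrpl57, Mrps35 and Mrps26. Order among genes on this scale is uncertain, since the length that counts and FPKM imply ran from 640.2 to 9091 bases. Mrpl24 was at 21.98, 22.3 and 22.6 FPKM in untreated WT libraries, 16.4, 16.8 and 19.01 in those with oxLDL, 20.4, 23.4 and 20.04 in untreated KO and 21.5, 20.1 and 19.5 in KO with oxLDL. The WT oxLDL libraries were lowest in FPKM, yet the log2 change relative to other genes was 0.05 (SE 0.08, adjusted p = 0.615), and -0.36 (adjusted p = 0.00063) with library totals alone. Mrpl18, known to help carry RNA into mitochondria, was at 21.8, 21.8 and 23.4 FPKM in untreated WT libraries, 13.2, 13.6 and 12.4 in those with oxLDL, 17.2, 15.9 and 16.8 in untreated KO and 17.4, 17.1 and 16.7 in KO with oxLDL. The KO libraries lay between the 2 WT groups, and Mrpl18 shares bases with Tcp1. It changed, at -0.37 (SE 0.06, adjusted p = 0.000226) with oxLDL in WT and -0.32 (SE 0.06, adjusted p = 0.00125) in untreated KO against WT.

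At the low end, Mrps35, a small-subunit protein specific to mitochondria, was at 0.964, 1.16 and 0.784 FPKM in untreated WT and 0.481, 0.459 and 0.421 with oxLDL, a log2 fold change of -0.69 (SE 0.15, adjusted p = 0.00169), and its WT groups did not overlap. Mrpl57 was at 0.796, 0.935 and 1.197 FPKM in untreated WT and 0.892, 0.364 and 0.549 with oxLDL and passed the threshold in no comparison on the TMM scale with all libraries fitted together. With library totals alone it was called lower in untreated KO (-0.85, adjusted p = 0.0347) and had an interaction of 1.24 (adjusted p = 0.0191), and without WT oxLDL library 1 these were -0.75 (adjusted p = 0.0274) and 1.21 (adjusted p = 0.0152). Replicates were tight for most members, with a median within-group SD of log2 CPM of 0.162, beside 0.191 over all genes tested. An SD over 0.4 was seen in 6 genes: Mrpl53, Mrps34, Mrpl52, Mrpl34, Mrps12 and Mrps28. Mrpl52 shows the form, at 6.57, 2.06 and 1.903 FPKM in WT with oxLDL and 1.26, 2.703 and 3.39 in untreated WT, where library 1 was the highest of its group with oxLDL and the lowest of its group untreated. It passed the threshold in no comparison on the TMM scale.

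The genes are spread over 17 chromosomes, with 11 on chromosome 11 and 8 on chromosome 17. Another tested gene starts within 1000 bases on the opposite strand for 34 of the 78 (43.6%), against 17.5% of all 17291 genes tested, a property that was not part of the rule. The opposite gene of Mrps12 is Sars2, which encodes the mitochondrial seryl-tRNA synthetase, that of Mrpl43 is Twnk, the mitochondrial DNA helicase, and Mrpl46 and Mrps11 face each other. Bases are shared with at least 1 other annotated gene for 36 of the 78 (46.2%, against 48.7% of all genes), among them Mrpl46 and Mrps11, which share bases with one another. Of these facing pairs, 21 had a partner outside the set and shared no bases. Over those 21 pairs the log2 change of the member and that of its partner with oxLDL in WT had a Pearson r of 0.23 and a Spearman rho of 0.29, given as a description across genes of the same libraries. Mrpl32 and its partner Psma2 had log2 fold changes of 0.38 and 0.81 with oxLDL in WT, and Mrpl36 and its partner Ndufs6 -0.86 and -0.65, all 4 called. Mrpl37 and its partner Cyb5rl went opposite ways, at 0.37 and -1.54, both called, and Mrps12 and Sars2 had -0.60 and -0.29, neither called. These pairs were picked after their values were seen.

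Mitoribosomal proteins that carry other names were also examined. Of 6 symbols listed, 5 were in the table. The list also held Ict1, an earlier symbol of Mrpl58, which is a member of the set. On the TMM scale none of the 5 passed the threshold with oxLDL in WT, against 23.9% higher and 27.2% lower of all genes. Dap3, a small-subunit GTPase first named as a death-associated protein, was at 4.31, 4.22 and 4.103 FPKM in untreated WT libraries, 2.98, 2.55 and 2.59 in those with oxLDL, 2.88, 2.96 and 3.101 in untreated KO and 2.64, 3.13 and 2.42 in KO with oxLDL. All untreated WT libraries were above all others, and Dap3 was lower in untreated KO, at -0.39 (SE 0.09, adjusted p = 0.00431). Gadd45gip1 and Aurkaip1 had positive interactions of 0.99 (SE 0.35, adjusted p = 0.033) and 0.62 (SE 0.21, adjusted p = 0.0264), calls that held in 5 and 6 of the 12 fits that left out 1 library.

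Genes that build and serve the ribosome were taken from lists given whole, and their shares stand against 27.2% lower and 23.9% higher of all genes tested with oxLDL in WT, and 30.6% higher and 27.4% lower in KO against WT with oxLDL. Of 26 assembly and rRNA modification factors, 9 fell (34.6%) and 3 rose (11.5%) with oxLDL in WT, and 13 were higher (50%) and 2 lower (7.69%) in KO against WT with oxLDL. Scaled by library totals alone, 20 fell (48.1% of all genes) and 0 rose (12.9%) in WT. On that scale 20 were higher (43.6% of all genes) and 0 lower (19.1%) in KO. Rbfa, a factor that matures the small subunit, was at 9.82, 9.26 and 10.00 FPKM in untreated WT libraries, 3.87, 3.97 and 3.897 in those with oxLDL, 6.34, 7.78 and 6.74 in untreated KO and 6.97, 8.47 and 7.89 in KO with oxLDL. The WT oxLDL libraries were lowest by a wide margin, with a log2 fold change in WT of -0.90 (SE 0.10, adjusted p = 3.62e-06) and an interaction of 1.06 (SE 0.14, adjusted p = 3.04e-05). Rpusd3, a pseudouridine synthase of mitochondrial rRNA, had the largest fitted fall, at -2.29 (SE 0.82, adjusted p = 0.0312), but at 0.227, 0.113 and 0.329 and 0.00393, 0 and 0.0827 FPKM in the 2 WT groups it was barely covered, and the call held in 8 of the 12 fits that left out 1 library.

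The aminoacyl-tRNA synthetases of mitochondria, which charge tRNAs with amino acids, had 10 of 20 lower (50%, against 27.2% of all genes) and 1 higher (5%, against 23.9%) with oxLDL in WT. In KO against WT with oxLDL 11 were higher (55%, against 30.6%) and 1 lower (5%, against 27.4%). On library totals alone, 17 fell and 1 rose in WT (48.1% and 12.9% of all genes), and 16 were higher and 1 lower in KO with oxLDL (43.6% and 19.1%). Mars2, for methionine, was at 1.002, 0.902 and 1.05 FPKM in untreated WT libraries, 0.322, 0.335 and 0.3204 in those with oxLDL, 1.04, 0.799 and 0.863 in untreated KO and 0.944, 0.884 and 0.843 in KO with oxLDL. Nars2, for asparagine, was at 0.518, 0.692 and 0.463 untreated and 0.164, 0.1203 and 0.0909 with oxLDL in WT. The WT oxLDL libraries stood apart at the bottom for both, with log2 fold changes in WT of -1.19 (SE 0.12, adjusted p = 6.73e-07) and -1.71 (SE 0.22, adjusted p = 1.13e-05).

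Of 14 translation factors, 4 fell (28.6%, close to the 27.2% of all genes) and 1 rose (7.14%) with oxLDL in WT, and 7 were higher (50%, against 30.6%) and 1 lower (7.14%) in KO against WT with oxLDL. Under library totals alone, 12 fell (48.1% of all genes) and 0 rose (12.9%) in WT. On that scale 12 were higher (43.6% of all genes) and 0 lower (19.1%) in KO. Guf1, a GTPase of the elongation factor family, was at 2.21, 2.49 and 2.22 FPKM in untreated WT libraries, 0.783, 0.797 and 0.773 in those with oxLDL and 1.96, 1.88 and 1.78 in KO with oxLDL, with a log2 fold change in WT of -1.14 (SE 0.08, adjusted p = 1.16e-08). Oxa1l, which inserts new chains into the inner membrane, fell in WT, at -0.51 (SE 0.11, adjusted p = 0.000886). Of 12 genes for mitochondrial DNA transcription and replication, 4 fell (33.3%, against 27.2% of all genes) and 0 rose with oxLDL in WT. Library totals alone gave 10 lower (48.1% of all genes) and 0 higher (12.9%). Those that fell on both scales included Twnk at -0.80 (SE 0.17, adjusted p = 0.00121) and the transcription factor Tfb2m at -0.75 (SE 0.13, adjusted p = 0.000185). Polrmt, the mitochondrial RNA polymerase, had -0.27 (adjusted p = 0.0847) with oxLDL in WT and 0.57 (adjusted p = 0.0151) for the interaction, and Tfam, which packages and transcribes mitochondrial DNA, had 0.12 (adjusted p = 0.409) and -0.06 (adjusted p = 0.797).

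Of 15 RNA processing and stability genes, 6 rose (40%, against 23.9% of all genes) and 2 fell (13.3%, against 27.2%) with oxLDL in WT on the TMM scale. In KO against WT with oxLDL, 2 were higher and 8 lower (53.3%, against 27.4%). Library totals alone gave 1 higher (12.9% of all genes) and 8 lower (48.1%) in WT. On that scale 4 were higher (43.6% of all genes) and 4 lower (19.1%) in KO. Pnpt1, a mitochondrial polynucleotide phosphorylase known as an interferon-induced gene, was at 14.5, 15.2 and 14.2 FPKM in untreated WT libraries, 28.1, 30.3 and 29.9 in those with oxLDL, 11.3, 10.8 and 11.9 in untreated KO and 10.5, 10.5 and 10.3 in KO with oxLDL. The 3 WT libraries with oxLDL were the highest by a wide margin, with a log2 fold change of 1.42 (SE 0.05, adjusted p = 1.21e-11) in WT and an interaction of -1.54 (SE 0.07, adjusted p = 4.75e-10). Hsd17b10, a subunit of mitochondrial RNase P, fell in WT, at -0.84 (SE 0.12, adjusted p = 3.96e-05).

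The mRNAs that the ribosome translates differed by genotype. All 13 mRNAs encoded by mitochondrial DNA were higher in untreated KO than in untreated WT (against 14.8% of all genes), with log2 fold changes from 0.24 to 0.60. In KO against WT with oxLDL 11 of 13 were higher (against 30.6% of all genes), and none was lower in either comparison. On library totals 10 and 13 were called higher (10.2% and 43.6% of all genes). mt-Nd4, a subunit of respiratory complex I, was at 1095, 939 and 853 FPKM in untreated WT and 1397, 1163 and 1524 in untreated KO, a log2 fold change of 0.60 (SE 0.11, adjusted p = 0.000577), and mt-Nd6 had 0.60 (SE 0.09, adjusted p = 7.13e-05). The untreated groups did not overlap for mt-Nd4. The 2 mitochondrial rRNAs did not follow these mRNAs, in libraries made from poly(A) RNA. mt-Rnr1, the small-subunit rRNA, was lower in untreated KO, at -0.28 (SE 0.07, adjusted p = 0.00812), and mt-Rnr2, the large-subunit rRNA, had 0.13 (adjusted p = 0.145). Summed FPKM of the 13 mRNAs ran from 18660 to 22440 in untreated WT and from 23130 to 27020 in untreated KO.

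**Figure D5:**
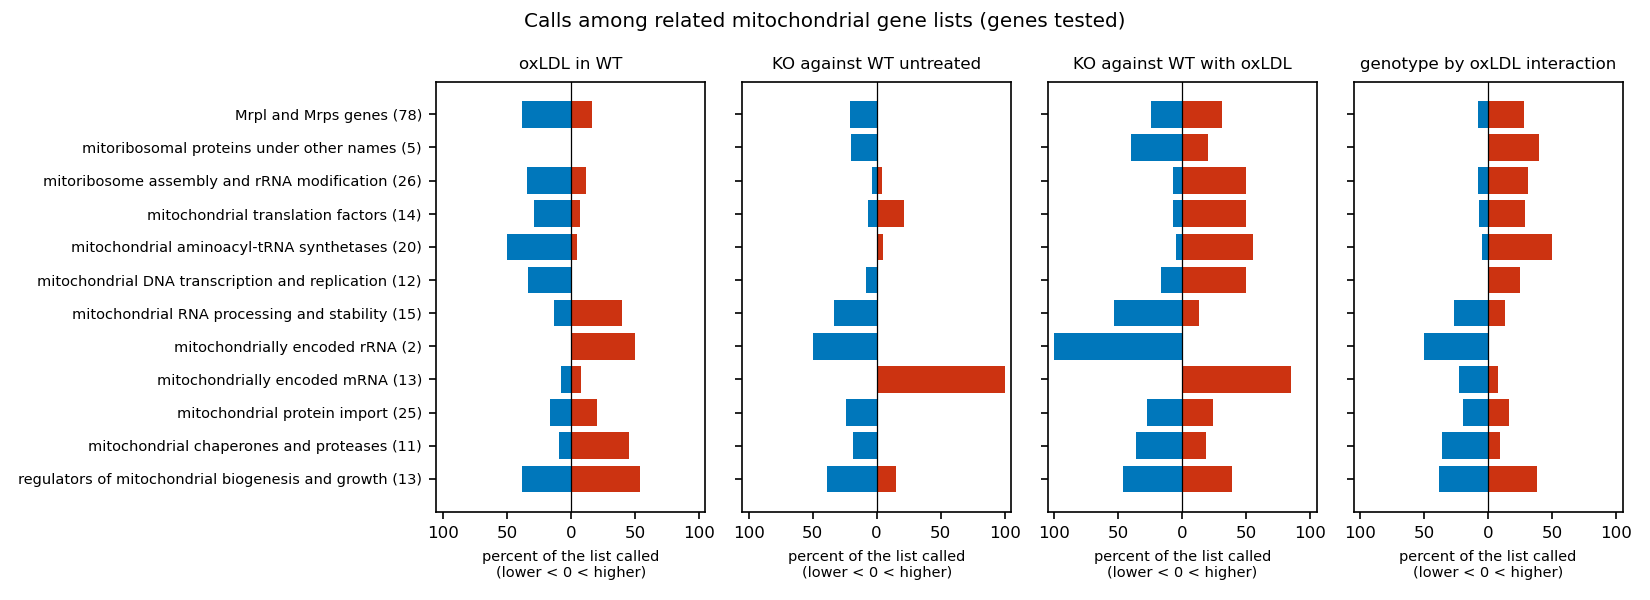
Percent of each gene list called lower (blue, to the left) or higher (red, to the right) in 4 comparisons, with the number of genes tested in parentheses (edgeR, TMM scale, adjusted p under 0.05). All 13 mitochondrially encoded mRNAs are called higher in untreated KO, where no Mrpl or Mrps gene is. Lists share control libraries between panels.

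Import, chaperone and protease genes gave calls in both directions. Of 25 import genes, 5 rose (20%) and 4 fell (16%) with oxLDL in WT, both under the 23.9% and 27.2% of all genes. Library totals alone gave 2 higher (12.9% of all genes) and 17 lower (48.1%). On the TMM scale the import genes included Dnajc19, a motor subunit, at -0.86 (SE 0.16, adjusted p = 0.00048) and Pmpca, which cuts off import signals, at 0.79 (SE 0.05, adjusted p = 1.17e-08). Of 11 chaperones and proteases, 5 rose (45.5%, against 23.9%) and 1 fell (9.09%, against 27.2%), with the inner membrane protease Yme1l1 at 0.57 (SE 0.06, adjusted p = 1.18e-06) and the m-AAA protease subunit Afg3l2 at 0.52 (SE 0.06, adjusted p = 3.89e-06). With library totals alone, 1 of these 11 rose (12.9% of all genes) and 8 fell (48.1%), and the call of Afg3l2 was lost.

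Regulators of mitochondrial biogenesis and growth also changed in both directions, with 7 of 13 tested genes higher (53.8%, against 23.9% of all genes) and 5 lower (38.5%, against 27.2%) with oxLDL in WT. Library totals alone gave 4 higher (12.9% of all genes) and 6 lower (48.1%). Pprc1, a coactivator related to PGC-1, was at 8.68, 8.098 and 8.02 FPKM in untreated WT libraries, 11.9, 11.8 and 10.2 in those with oxLDL, 8.47, 7.78 and 7.32 in untreated KO and 7.06, 7.82 and 8.57 in KO with oxLDL. The 3 WT libraries with oxLDL were the highest, with a log2 fold change of 0.86 (SE 0.08, adjusted p = 4.75e-07) in WT and an interaction of -0.86 (SE 0.11, adjusted p = 2.38e-05). Max, the partner of Myc, rose, at 1.07 (SE 0.05, adjusted p = 1.05e-10). Ppargc1a (PGC-1 alpha), at most at 0.251 FPKM in any library, fell in WT, at -2.34 (SE 0.69, adjusted p = 0.0111). Myc, a driver of ribosome production, rose in WT, at 0.70 (SE 0.18, adjusted p = 0.00479), and Nrf1, a transcription factor of nuclear genes for mitochondria,, at 0.53 (SE 0.09, adjusted p = 0.000206), but both calls ended with library totals alone. Gabpa, another such factor, had 0.00 (adjusted p = 0.965).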

How the data were processed

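Poly(A) RNA-seq libraries of 12 mouse macrophage samples, 3 in each of 4 groups, were read from one deposited table of 27294 genes, with groups taken from the labels. Counts per gene are whole-number fragment counts as deposited by the authors, per the file headers, and library totals were 53588814 to 76809931. FPKM values were computed by the authors and deposited beside the counts, per the file headers, and match counts divided by the library total and a gene length. The submitters' processing notes name Bowtie 0.12.2 and HISAT2 2.0. How fragments were counted, and whether by strand, is not stated in any source used here. Those notes name mm8 as the genome build, while gene positions in the table lie on GRCm38 (99.93% of 21990 genes matched by Entrez number overlap their GRCm38.p6 position, all 78 members among them), and positions are given on GRCm38.

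Tests were run on the counts with edgeR 4.0.16 in R 4.3.3 (TMM scaling, filterByExpr, quasi-likelihood test, the 4 groups fitted together with no replicate block), over 17291 genes. The threshold for a call was 0.05 on p-values adjusted over all of them by Benjamini-Hochberg. The script was first tested on simulated counts. With 3 libraries against 3, an exact permutation test cannot go below 0.1, so single values were not tested that way. Alternatives were DESeq2 1.42.0, limma 3.58.1 on log2 FPKM, other scalings and filters, a length offset, a replicate block and leaving out each library. No pairing of libraries by shared replicate number was seen, which cannot exclude a pairing of small effect. Per comparison the 5 members with the largest change in each direction among those called are named, or without calls 2 of the smallest p in each direction, beside members of special role and the 3 highest and lowest in FPKM. Of each related list up to 2 called genes with the largest change in a comparison are named, with Myc, Pprc1, Nrf1, Gabpa, Tfam and Polrmt. The members, lists and rules were chosen with earlier results of these data known. Subunit placement comes from general knowledge of the ribosome. No sequences are shown.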

Additional observations from a re-analysis of the deposited data

Results flagged for a closer look

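The change with oxLDL differed between KO and WT macrophages, by the interaction test of edgeR, for 16 of the genes named by rule in that comparison. Groups of 3 libraries are too small for the test for a single library that stands apart, so none was run.

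In 10 of the 16 the change in KO minus that in WT was positive on the log2 scale. The values were 2.02 for Mrpl34, 1.87 for Mrps12, 1.46 for Mrpl36, 1.14 for Mrps26, 1.08 for Mrpl42 and 0.89 for Mrps36. They were 0.65 for Mrpl12, 0.62 for Mrpl41, 0.61 for Mrps35 and 0.41 for Mrpl18. The call of Mrps26 was lost without untreated WT library 3, and that of Mrps35 was lost in 9 of the 12 fits that left out 1 library.

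In 6 it was negative, at -0.84 for Mrpl39, -0.82 for Mrpl27, -0.59 for Mrpl32, -0.58 for Mrpl30, -0.49 for Mrps18b and -0.35 for Mrpl45. Of these, the call of Mrpl39 held in all 9 other fits, and the calls of the others ended with library totals alone and with both limma fits on FPKM.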

How the results depend on the processing

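Scaling had the widest effect, and the cause was not tested. With oxLDL in WT, 2 members rose and 52 fell with library totals alone, and 2 and 53 with limma on log2(FPKM + 1) or log2(FPKM + 0.1). Over all 17291 genes these 3 settings gave 2222, 2482 and 2439 higher and 8322, 8281 and 8433 lower. In KO against WT untreated, 30, 27 and 26 were lower under these 3 settings (3849, 3889 and 3846 of all genes). In KO against WT with oxLDL, 46, 47 and 47 were higher and 11, 10 and 11 lower. Of all genes, 7538, 7452 and 7608 were higher and 3302, 3401 and 3451 lower. The interaction was positive for 54, 55 and 54 and negative for 1 in each, and the length offset gave 16 positive and 12 negative. Of all genes, 7174, 6996 and 7095 were positive and 1834, 2140 and 2067 negative, and with the length offset 3274 and 3917. In KO cells with oxLDL, DESeq2 called 2 higher and the fit of those groups alone 3 (99 and 60 over all genes). Asking for a change of at least 1.5-fold left 3 higher and 11 lower with oxLDL in WT and 3 lower in untreated KO. It left 12 higher and 8 lower in KO with oxLDL, and 16 positive and 3 negative interactions. This fold cut was not counted over all genes.

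Signs turned under the same 3 settings, given here in the order library totals, FPKM + 1 and FPKM + 0.1. With oxLDL in WT, Mrps18a was at -0.28, -0.24 and -0.28, Mrps18b at -0.06, -0.05 and -0.05, Mrpl45 at -0.10, -0.09 and -0.10, and Mrpl24 at -0.36, -0.34 and -0.36. In KO against WT with oxLDL, Mrpl24 was at 0.23, 0.21 and 0.23. The interaction was 0.35, 0.30 and 0.35 for Mrps18a, 0.06, 0.05 and 0.06 for Mrpl45, and 0.30, 0.28 and 0.30 for Mrpl24. Of 2223 other values for the 102 gene and comparison pairs named, 2066 kept direction and side of the threshold.

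With each library left out in turn, the counts ran from 10 to 13 higher and 21 to 33 lower with oxLDL in WT, 0 to 2 higher in KO, 0 to 1 higher and 10 to 21 lower in untreated KO, 17 to 24 higher and 15 to 19 lower in KO with oxLDL, and 18 to 26 positive and 5 to 7 negative for the interaction. Over all genes tested, these fits gave 3835 to 4179 higher and 4306 to 4726 lower with oxLDL in WT. For KO against WT untreated they gave 2161 to 2586 higher and 2376 to 2894 lower. With oxLDL they gave 4877 to 5288 higher and 4467 to 4758 lower in KO. Same-numbered libraries did not deviate together (correlations from -0.045 to 0.031 over 18 pairs, none over 0.1), and 2 libraries correlated best with their own number. The replicate block gave 12 higher and 30 lower with oxLDL in WT, 0 and 0 in KO, 0 and 15 in untreated KO, 22 and 18 in KO with oxLDL, and 21 and 6 for the interaction. Over all genes it gave 4027 and 4576, 0 and 0, 2439 and 2617, 5141 and 4626, and 3642 and 3285. The fit of a comparison's own groups has no value for the interaction, and a search for motifs in promoters was not run. Depth limits the 10 members with a library under 100 counts.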
